A study of Mus musculus with 6 samples.

Results

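The genes described here are those of the NRF2 pathway with glutathione enzymes and a metallothionein, taken from a given list of 10 symbols: Nfe2l2, Keap1, Gclc, Gclm, Nqo1, Hmox1, Txnrd1, Srxn1, Gstp2 and Mt2. A gene was kept where it had a row in each of 3 count tables, which cover the gene body, its transcription start site (TSS) and its transcription end site (TES). This held for 9 of the 10, out of 12718 genes with rows, and Txnrd1 was not analysed here. The values came from ChIP-seq, the sequencing of DNA that precipitates with a chromatin protein, here RPB1, the catalytic subunit of RNA polymerase II. The antibody binds its N-terminal domain (NTD). The tissue was whole adrenal glands of female mice, 3 wild type (WT) and 3 Armc5 knockout, labelled Armc5(-/-), and the row of Armc5 itself was not analysed here. Both groups were of strain 129 sv X CD1 and 10 to 14 months old, and no treatment was labelled. The 6 libraries carried 6 different mouse numbers and were taken as separate animals, so n = 3 per genotype throughout. The knockout was compared with WT by region, and TES counts were compared with gene body counts, with Gstp2 and Mt2 singled out.

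NRF2, encoded by Nfe2l2, is the transcription factor that turns on antioxidant and detoxifying genes. KEAP1 binds NRF2 and presents it to the ubiquitin ligase CUL3 for destruction, and oxidants or electrophiles that modify KEAP1 let NRF2 accumulate, pair with a small MAF protein and bind antioxidant response elements. ARMC5 is likewise known as an adaptor of CUL3, and RPB1 is known as one of its substrates. Glutathione is the main soluble thiol of cells, and the steroid-making mitochondria of the adrenal cortex are a source of reactive oxygen. Metallothioneins are small cysteine-rich proteins that bind zinc and copper and are induced through metal response elements by the factor MTF1. RPB1 counts over a gene record where polymerase sat, not how much RNA the gene made.

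The promoters are shown first because these genes are known by the elements they carry. Of the 9 genes, 7 had an entry in the RefSeq promoter table (GRCm38.p6), and the 250 bases before the start were searched on both strands for 4 motifs. Gclc and Hmox1 had no entry, so their promoters were not searched. The antioxidant response element core, TGACNNNGC, was found in 10.2% of all 32851 promoters of the table. The AP-1 site, TGANTCA, was found in 6.75% and the TATA box, TATAAA, in 12.4%. A loose form of the metal response element core, TGCNCNC, was found in 44.4%. The stricter form TGCRCNC, where R is A or G, was not counted over all promoters. TGACNNNGC and TGANTCA can overlap on the same bases. Capitals in the Gclm promoter (chr3:122245307-122245556, plus strand) mark its antioxidant response element core, which reads on the minus strand. The start used by the table lies inside the annotated span of Gclm.
Gclm: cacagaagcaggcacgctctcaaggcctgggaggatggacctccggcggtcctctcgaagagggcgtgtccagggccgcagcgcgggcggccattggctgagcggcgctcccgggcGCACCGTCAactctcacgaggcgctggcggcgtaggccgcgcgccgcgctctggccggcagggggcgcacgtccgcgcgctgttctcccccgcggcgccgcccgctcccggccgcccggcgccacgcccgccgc
Capitals in the next 3 promoters mark AP-1 sites: Srxn1 (chr2:152105274-152105523, plus strand), Gstp2 (chr19:4042222-4042471, minus strand) and its neighbour Gstp1 (chr19:4037913-4038162, minus strand).
Srxn1: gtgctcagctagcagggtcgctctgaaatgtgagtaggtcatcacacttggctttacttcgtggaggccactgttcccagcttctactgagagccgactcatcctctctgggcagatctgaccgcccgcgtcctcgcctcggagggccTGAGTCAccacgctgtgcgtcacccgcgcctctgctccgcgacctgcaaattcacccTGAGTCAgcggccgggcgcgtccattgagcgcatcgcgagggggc
Gstp2: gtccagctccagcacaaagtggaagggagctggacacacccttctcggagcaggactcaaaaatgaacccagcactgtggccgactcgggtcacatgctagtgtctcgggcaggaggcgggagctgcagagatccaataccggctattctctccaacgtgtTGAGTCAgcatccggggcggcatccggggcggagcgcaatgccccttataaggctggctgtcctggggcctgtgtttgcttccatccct
Gstp1: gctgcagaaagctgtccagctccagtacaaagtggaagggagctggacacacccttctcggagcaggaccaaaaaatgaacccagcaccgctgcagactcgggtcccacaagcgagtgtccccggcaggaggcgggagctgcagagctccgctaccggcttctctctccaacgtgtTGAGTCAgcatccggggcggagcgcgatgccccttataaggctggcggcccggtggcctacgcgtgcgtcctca
Capitals in the Mt2 promoter (chr8:94172368-94172617, plus strand) mark matches to the loose form TGCNCNC on either strand.
Mt2: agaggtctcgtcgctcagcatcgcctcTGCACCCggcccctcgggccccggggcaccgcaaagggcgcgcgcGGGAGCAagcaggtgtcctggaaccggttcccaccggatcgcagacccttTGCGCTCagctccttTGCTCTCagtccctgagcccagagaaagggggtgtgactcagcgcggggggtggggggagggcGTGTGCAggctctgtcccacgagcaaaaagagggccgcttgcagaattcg

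The Mt2 promoter held 5 metal response element cores, a number reached or passed by 0.344% of all promoters searched. At 79 bases before its start lay 1 antioxidant response element core that overlapped 1 AP-1 site. Srxn1 held 2 AP-1 sites, at 102 and 45 bases before the start, and no match to TGACNNNGC in this window. Nfe2l2 held 1 antioxidant response element core, 240 bases before its start, and Keap1 held none of the 4 motifs. Nqo1 held 1 TATA box and 2 metal response element cores. The Gstp2 and Gstp1 promoters were identical at 208 of 235 aligned bases (88.5%), and each held 1 AP-1 site, 89 and 74 bases before the start. These sites, and that of Srxn1 at 45 bases, are followed by GC. They thus differ from TGACNNNGC only by G in place of C, and wider forms of the element were not searched. A match is a description of the letters, and binding was not measured.

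In the knockout, RPB1 counts at the TES rose for Gclc and fell for Gstp2, and no other gene of the 9 passed the test in any region. In the plot of counts by library, Gclc stood higher in all 3 knockout libraries than in all 3 WT libraries in each region, and so did Hmox1. At the TSS and over the gene body, 0 of 9 genes passed, against 0.339% and 0.252% of all genes tested (edgeR quasi-likelihood test, Benjamini-Hochberg adjusted p under 0.05). At an unadjusted p under 0.05 there were 2 of 9 in each of these regions, Gclc and Hmox1, against 706 of 12682 genes at the TSS and 642 of 12714 over the gene body. At the TES there were 3 of 9, with Gstp2 added, against 869 of 12680. DESeq2 called 1 of 9 at the TSS and 2 of 9 over the gene body, where it called 95 and 179 of all genes, and limma-voom called 0 of 9 in both. Among all genes, 0.244% were called higher and 0.00787% lower over the gene body. At the TES, 2 of 9 were called, against 0.915% of all genes, with 1 of 9 higher, against 0.82%, and 1 of 9 lower, against 0.0946%. The 9 genes were chosen with earlier results of these data known, and Gstp2 was singled out for its TES to gene body contrast. These shares are therefore a description. The values are read counts brought to a common library total within each table by TMM scaling (CPM), so a change is relative to the other genes of that region. In these bulk glands, fewer cells of a type and less polymerase per cell cannot be told apart.

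**Figure D1:**
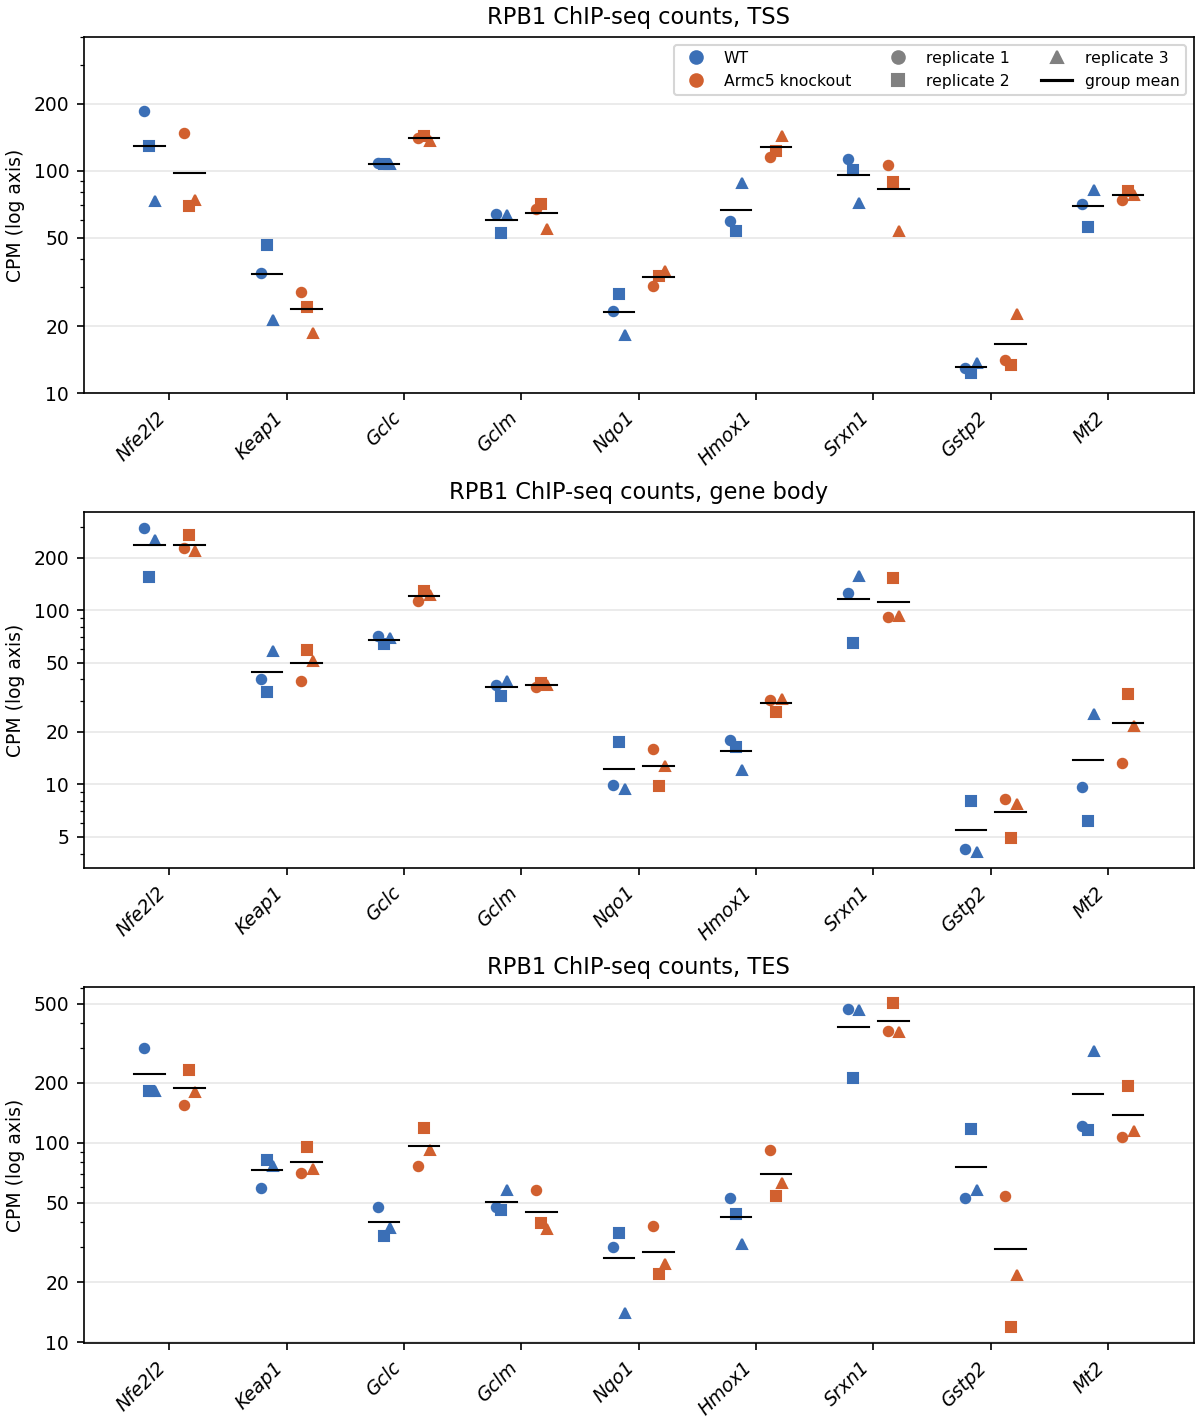
RPB1 counts (CPM, log axis) of the 9 genes at the TSS, over the gene body and at the TES, with 1 point per library, colour for genotype, shape for replicate and a bar at the group mean. Gclc and Hmox1 are separated by genotype in each panel, and for Gstp2 at the TES knockout replicate 1 (54.4 CPM) lies among the WT libraries.

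The sensor and the transcription factor gave no call. Nfe2l2 (chr2:75675513-75704663, 29151 bp) had 185, 129 and 73.3 CPM at the TSS in WT replicates 1, 2 and 3 and 149, 69.8 and 74.3 CPM in the knockout. Its gene body held 296, 156 and 254 CPM in WT against 227, 269 and 218 CPM in the knockout, and its TES 299, 181 and 183 against 156, 231 and 181 CPM. The groups overlapped in each region, and the log2 fold changes were -0.41, 0.01 and -0.22. A 95% interval over the gene body, from 0.695-fold to 1.47-fold, bounds what these libraries could show.

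Keap1 (chr9:21229730-21239332), the adaptor that holds NRF2 to CUL3, had 34.8, 46.5 and 21.4 CPM at the TSS in WT against 28.7, 24.4 and 18.7 CPM in the knockout. Over the gene body it had 40.3, 33.7 and 58.1 CPM in WT against 39.0, 58.8 and 51.0 CPM in the knockout. At the TES it had 59.7, 82.3 and 77.0 CPM in WT against 70.5, 95.5 and 74.3 CPM in the knockout. The groups overlapped in each region, with log2 fold changes of -0.49, 0.17 and 0.14. Of the other regulators, Cul3 (the scaffold of the ligase), Rbx1 (its RING subunit), Bach1 (a repressor at the same elements) and Mafg (a small MAF partner) gave no call in any region. Their log2 fold changes lay between -0.07 and 0.07 at the TSS, between -0.08 and 0.12 over the gene body and between -0.16 and 0.24 at the TES.

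Gclc (chr9:77754535-77794489, 39955 bp) encodes the catalytic subunit of glutamate-cysteine ligase, the rate-limiting enzyme of glutathione synthesis. At the TES it had 47.9, 34.3 and 37.6 CPM in WT against 76.6, 119 and 92.0 CPM in the knockout. The lowest knockout library lay well above the highest WT library. The mean went from 39.9 ± 7.09 to 96.0 ± 21.6 CPM (SD, n = 3 each), a 2.40-fold rise with a 95% interval from 1.73 to 3.32 (log2 fold change 1.26 ± 0.23 SE, edgeR adjusted p = 0.00106). This was the 48th highest of the 12680 log2 fold changes tested at the TES. The call held under all 16 alternative settings, each library left out included, with log2 fold changes from 1.07 to 1.41 and adjusted p from 1.5e-05 to 0.0189.

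The gene body of Gclc held 70.7, 63.7 and 68.9 CPM in WT against 113, 128 and 122 CPM in the knockout. The groups did not overlap and each was tight, at 67.8 ± 3.64 and 121 ± 7.52 CPM, yet the 1.79-fold difference missed the threshold (log2 fold change 0.84 ± 0.13, adjusted p = 0.0585). It passed with DESeq2 (adjusted p = 2.56e-07) and with depth class, the 3 shallowest libraries against the other 3, as a covariate (0.0268). Under the other 14 settings it did not pass, with adjusted p up to 0.442. At the TSS all 3 WT libraries had 108 CPM, and the knockout libraries had 140, 143 and 136 CPM. This 1.30-fold difference did not pass (log2 fold change 0.38 ± 0.14, adjusted p = 0.713). The values of Gclc thus stood 1.30-fold, 1.79-fold and 2.40-fold higher at the TSS, over the gene body and at the TES.

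Ratios of Gclc between regions did not pass. TES CPM over gene body CPM was 0.678, 0.539 and 0.546 in WT and 0.678, 0.932 and 0.753 in the knockout, so WT replicate 1 and knockout replicate 1 were equal to 3 digits. Beyond those digits the knockout was the higher, which made Gclc 1 of 9 genes with all knockout libraries above, against 5.5% of all genes (log2 difference 0.42 ± 0.21, adjusted p = 0.841). TSS CPM over gene body CPM was 1.53, 1.69 and 1.56 in WT and 1.24, 1.12 and 1.12 in the knockout. All 3 knockout libraries were lower (log2 difference -0.46 ± 0.17, adjusted p = 0.956), as for 1 of 9 here and in 4.95% of all genes, and for 0 of 9 were they all higher, against 4.51%.

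Gclm (chr3:122245487-122267215) encodes the modifier subunit of the same ligase. It had 63.7, 52.7 and 63.4 CPM at the TSS in WT against 67.5, 70.9 and 54.9 CPM in the knockout. Its gene body held 37.0, 32.1 and 39.3 CPM in WT against 36.2, 38.0 and 37.4 CPM in the knockout, and its TES 47.9, 46.1 and 57.7 against 58.2, 39.8 and 36.9 CPM. The groups overlapped in each region, with log2 fold changes of 0.09, 0.04 and -0.20. Its interval over the gene body, from 0.824-fold to 1.29-fold, ended below the 1.46-fold lower bound of Gclc in the same region.

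**Figure D2:**
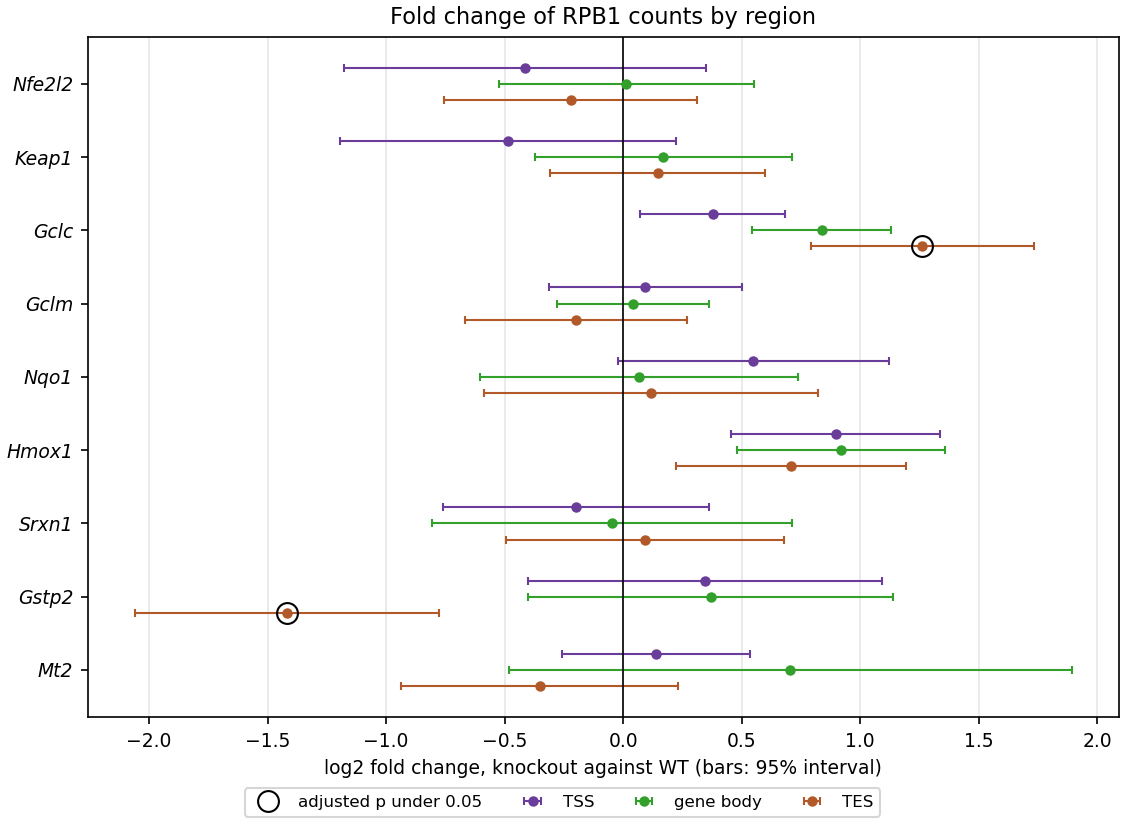
Log2 fold change of RPB1 counts, knockout against WT, for the 9 genes by region, with bars for the 95% interval and rings on the changes with an adjusted p under 0.05. Rings stand on Gclc (1.26) and Gstp2 (-1.42) at the TES alone.

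Hmox1 (chr8:75093618-75100593) encodes haem oxygenase 1, which breaks haem down to biliverdin, iron and carbon monoxide. At the TSS it had 59.3, 53.7 and 87.7 CPM in WT against 115, 123 and 144 CPM in the knockout. Over the gene body it had 18.1, 16.3 and 12.1 CPM in WT against 30.7, 26.1 and 30.9 CPM in the knockout. At the TES it had 52.6, 44.1 and 31.1 CPM in WT against 92.0, 54.4 and 62.9 CPM in the knockout. The knockout libraries were above the WT libraries in each region, by a wide margin at the TSS and over the gene body and narrowly at the TES. All knockout libraries stood above all WT libraries for 3 of 9 genes at the TSS (Gclc, Nqo1 and Hmox1), against 6.46% of all genes. It was 2 of 9 (Gclc and Hmox1) over the gene body, against 6.51%, and the same 2 at the TES, against 6.7%. All knockout libraries stood below all WT libraries for 0 of 9 in each region, against 4.94%, 3.87% and 4.83%.

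None of the Hmox1 differences passed the test. The folds were 1.86 at the TSS (95% interval 1.37 to 2.53), 1.89 over the gene body (1.39 to 2.56) and 1.64 at the TES (1.17 to 2.29). Their adjusted p-values were 0.151, 0.157 and 0.249. The TSS difference passed with DESeq2 (0.0199), with depth class as a covariate (0.00541) and without WT replicate 3 (0.0209). The gene body difference passed with DESeq2 (0.00361) and depth class (0.0338), and the TES difference with depth class (0.0145). The ratios between regions overlapped, at 2.73 ± 0.18 in WT and 2.37 ± 0.54 in the knockout for TES over gene body.

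Nqo1 (chr8:107388225-107403205) encodes a quinone reductase and is a widely used NRF2 target. At the TSS it had 23.4, 27.9 and 18.2 CPM in WT against 30.4, 33.7 and 35.5 CPM in the knockout, with no overlap (log2 fold change 0.55 ± 0.26, adjusted p = 0.914). Further along the gene this separation was not seen. The gene body had 9.95, 17.5 and 9.45 against 15.8, 9.81 and 12.8 CPM and the TES 30.2, 35.3 and 14.0 against 38.3, 21.9 and 24.6 CPM. Srxn1 (chr2:152105524-152111376) encodes sulfiredoxin, which repairs over-oxidised peroxiredoxins. Its TSS had 113, 101 and 71.4 CPM in WT against 106, 88.7 and 53.8 CPM in the knockout. Its gene body had 125, 65.1 and 157 against 91.0, 153 and 92.6 CPM, and its TES 471, 212 and 467 against 364, 504 and 359 CPM. The groups overlapped in each region, and WT replicate 2, the shallowest library, was the lowest at the TES and over the gene body.

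Gstp2 (chr19:4040288-4042221, 1934 bp) encodes a pi-class glutathione S-transferase, which joins glutathione to electrophiles. At the TES it had 52.6, 118 and 58.2 CPM in WT against 54.4, 11.9 and 21.6 CPM in the knockout, from 89, 120 and 133 reads and 71, 26 and 44 reads. Knockout replicate 1 lay inside the WT range and the other 2 knockout libraries lay below it. The mean was 76.1 ± 36.0 CPM in WT and 29.3 ± 22.3 CPM in the knockout, and the count fell by 1.42 ± 0.32 on the log2 scale (edgeR adjusted p = 0.0123), to 0.374 of the WT level with a 95% interval from 0.24 to 0.583. It was the 13th lowest log2 fold change of the 12680. The call ended with DESeq2 (adjusted p = 0.109), without WT replicate 2 (0.334) and without knockout replicate 2 (0.185), with log2 fold changes of -1.40, -1.01 and -1.01.

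The TSS of Gstp2 had 13.1, 12.4 and 13.8 CPM in WT against 14.1, 13.4 and 22.7 CPM in the knockout. Its gene body had 4.26, 8.06 and 4.07 CPM in WT against 8.26, 4.93 and 7.74 CPM in the knockout. In both regions the groups overlapped, with log2 fold changes of 0.35 ± 0.34 and 0.37 ± 0.34 that did not pass (adjusted p = 0.953 and 0.934). The TES difference of Gstp2 therefore had the opposite sign to its values over the rest of the gene.

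The TES to gene body ratio compares the CPM of a gene in these regions, and 1 means an equal share of both tables. For Gstp2 it was 12.4, 14.6 and 14.3 in WT and 6.59, 2.41 and 2.80 in the knockout. All knockout libraries were below all WT libraries, and the WT values were close together. The mean was 13.8 ± 1.21 in WT and 3.93 ± 2.31 in the knockout, a log2 difference of -1.90 ± 0.35, the third lowest of 12716 genes tested. The region by genotype test gave an adjusted p of 0.152 and did not pass. It passed with depth class as a covariate (0.0275), without WT replicate 3 (0.0398) and without knockout replicate 1 (0.0235). Under the other 13 alternatives it did not pass, with adjusted p up to 0.978. Gstp2 and Mt2 were singled out with this contrast known, so their ratios are given as a description.

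Mt2 (chr8:94172618-94173567, 950 bp) is the second of the widely expressed metallothionein genes. Its TES to gene body ratio was 12.6, 18.9 and 11.4 in WT and 8.11, 5.90 and 5.29 in the knockout. The groups did not overlap, at 14.3 ± 4.0 and 6.44 ± 1.49, a log2 difference of -1.11 ± 0.23 that did not pass (adjusted p = 0.22). It passed without WT replicate 3 (0.0398) and under none of the other 15 alternatives. None of its regions passed on its own. The gene body had 9.67, 6.13 and 25.4 CPM in WT against 13.2, 32.8 and 21.7 CPM in the knockout (log2 fold change 0.71 ± 0.52), and the TES 122, 116 and 291 against 107, 194 and 115 CPM (-0.35 ± 0.29). WT replicate 3 was the highest WT library in both regions, and without it the TES value turned positive, to 0.23, and the gene body value went from 0.71 to 1.5, which did not pass either (adjusted p = 0.274). The TSS had 70.8, 55.8 and 82.3 CPM in WT against 74.3, 81.0 and 77.9 CPM in the knockout, which overlapped.

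By TES to gene body ratio, 0 of 9 genes were called, as 0 of all 12716 genes were by edgeR and by limma on the log2 ratio, while limma-voom called 2 of all genes. At an unadjusted p under 0.05 there were 2 of 9, Gstp2 and Mt2, and 720 of all genes. All knockout libraries were below all WT libraries for these 2 of 9, against 6.63% of all genes. As these 2 genes were singled out with this contrast known, neither share is a test of the list. By TSS to gene body ratio 0 of 9 were called by edgeR and by limma on the log2 ratio, again as 0 of all genes by edgeR, with 1 of 9 at an unadjusted p under 0.05, Gclc, against 465 of 12717 genes. The other 7 genes gave TES to gene body ratios between 0.587 (Gclc) and 3.33 (Srxn1) as WT means, so Gstp2 and Mt2 had by far the highest. Both genes are short, and the sources used here do not give the widths of the TSS and TES windows, so windows within them may overlap. The intervals and errors of the log2 fold changes come from the edgeR fit of all genes, not from each gene's own libraries alone. They may be too narrow for a gene whose libraries differ widely. An example is Gstp2 at the TES, at 11.9 to 54.4 CPM in the knockout. They describe these libraries only.

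**Figure D3:**
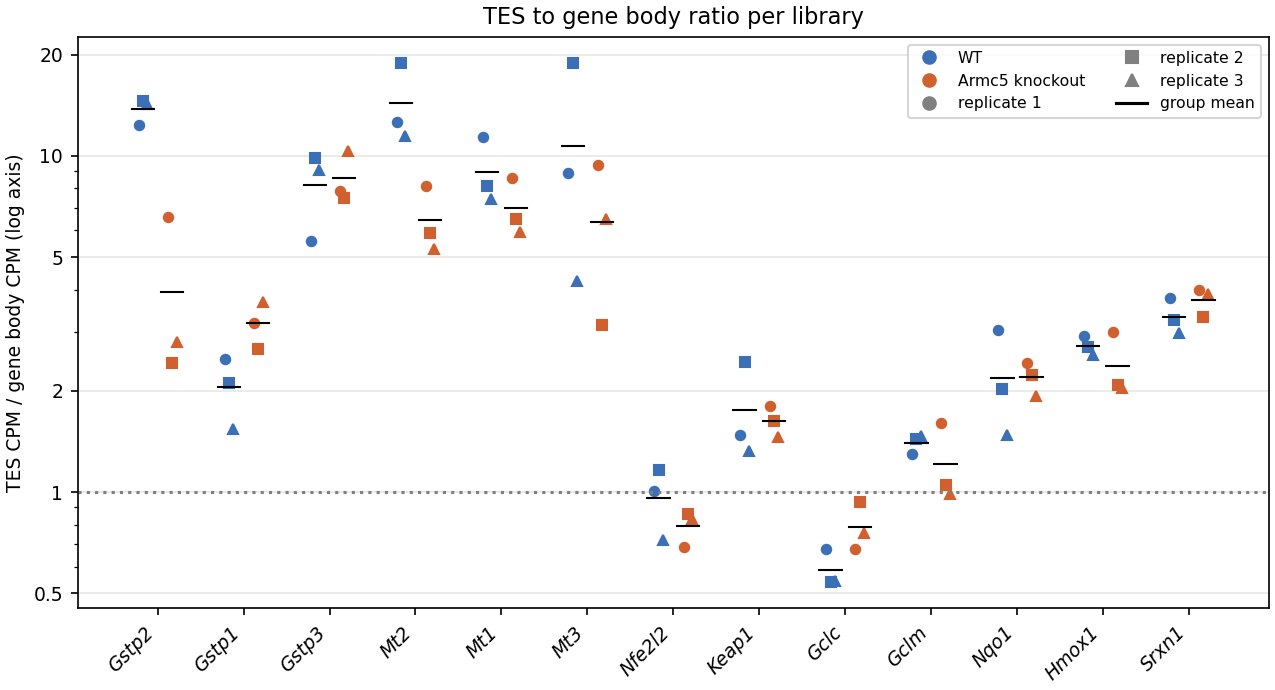
TES CPM over gene body CPM per library (log axis, dotted line at 1) for the 9 genes and the paralogs Gstp1, Gstp3, Mt1 and Mt3, with a bar at the group mean. Gstp2 (13.8 to 3.93) and Mt2 (14.3 to 6.44) are separated by genotype with the knockout lower, and Gstp1 (2.05 to 3.18) with the knockout higher.

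Gstp1 lies 2375 bp from Gstp2 and was the one gene with a row within 5 kb of any of the 9. Its TES had 43.2, 49.0 and 42.4 CPM in WT against 82.8, 75.0 and 97.4 CPM in the knockout. The groups were well apart, and the count rose 1.91-fold, from 44.9 ± 3.60 CPM in WT to 85.0 ± 11.4 CPM (log2 fold change 0.93 ± 0.22, adjusted p = 0.0228). That call ended with joint scaling of the 3 regions (adjusted p = 0.0928), without WT replicate 1 (0.123) and without knockout replicate 3 (0.126). The sum of both genes at the TES was 121 ± 39.6 CPM in WT and 114 ± 25.5 CPM in the knockout. Gstp1 held 45.1%, 29.4% and 42.2% of that sum in WT and 60.3%, 86.3% and 81.8% in the knockout, with no overlap. The treatment of reads that match both copies is not stated in the sources used here, and the sequences of the 2 genes were compared at the promoter alone. The split between these paralogs is thus uncertain, and its part in either call was not tested.

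Gstp3, 15248 bp from Gstp2, gave TES to gene body ratios of 8.17 ± 2.26 in WT and 8.56 ± 1.53 in the knockout, with a TES log2 fold change of -0.57 ± 0.46 that did not pass. Mt1, 5315 bp from Mt2, gave ratios of 8.97 ± 2.09 and 7.00 ± 1.41 (log2 difference -0.36, adjusted p = 0.845), which overlapped. Its TES had 306, 139 and 478 CPM in WT against 240, 367 and 227 CPM in the knockout. Over the gene body, Mt1 and Mt2 had the same order of libraries within each genotype, with WT replicate 2 the lowest and WT replicate 3 the highest. Mt3, the brain-enriched metallothionein, gave ratios of 10.7 ± 7.49 and 6.35 ± 3.14, also overlapping. Mt4 was not analysed here.

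Gene body counts were also divided by the full annotated span of each gene, as the width that was counted is not given. For short genes such as Mt2 and Gstp2 the counted width may differ much from that span, so their levels and places in the order are rough. Among the 9 genes in WT, Srxn1 had the highest level at 19.8 ± 7.99 CPM per kb, followed by Mt2 at 14.5 ± 10.8, Nfe2l2 at 8.08 ± 2.47 and Keap1 at 4.58 ± 1.31. The lower levels were Gstp2 at 2.82 ± 1.16, Hmox1 at 2.22 ± 0.44, Gclc at 1.70 ± 0.09, Gclm at 1.66 ± 0.17 and Nqo1 at 0.82 ± 0.30 CPM per kb. The ranges of neighbours in this order overlapped, apart from those of Gclm and Nqo1. In the knockout, Gclc reached 3.03 ± 0.19 and Hmox1 4.19 ± 0.39 CPM per kb, while Gclm was at 1.71 ± 0.04. In WT the subunits of the ligase thus had a like gene body level per length, and in the knockout the 3 libraries of Gclc were all above those of Gclm.

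**Figure D4:**
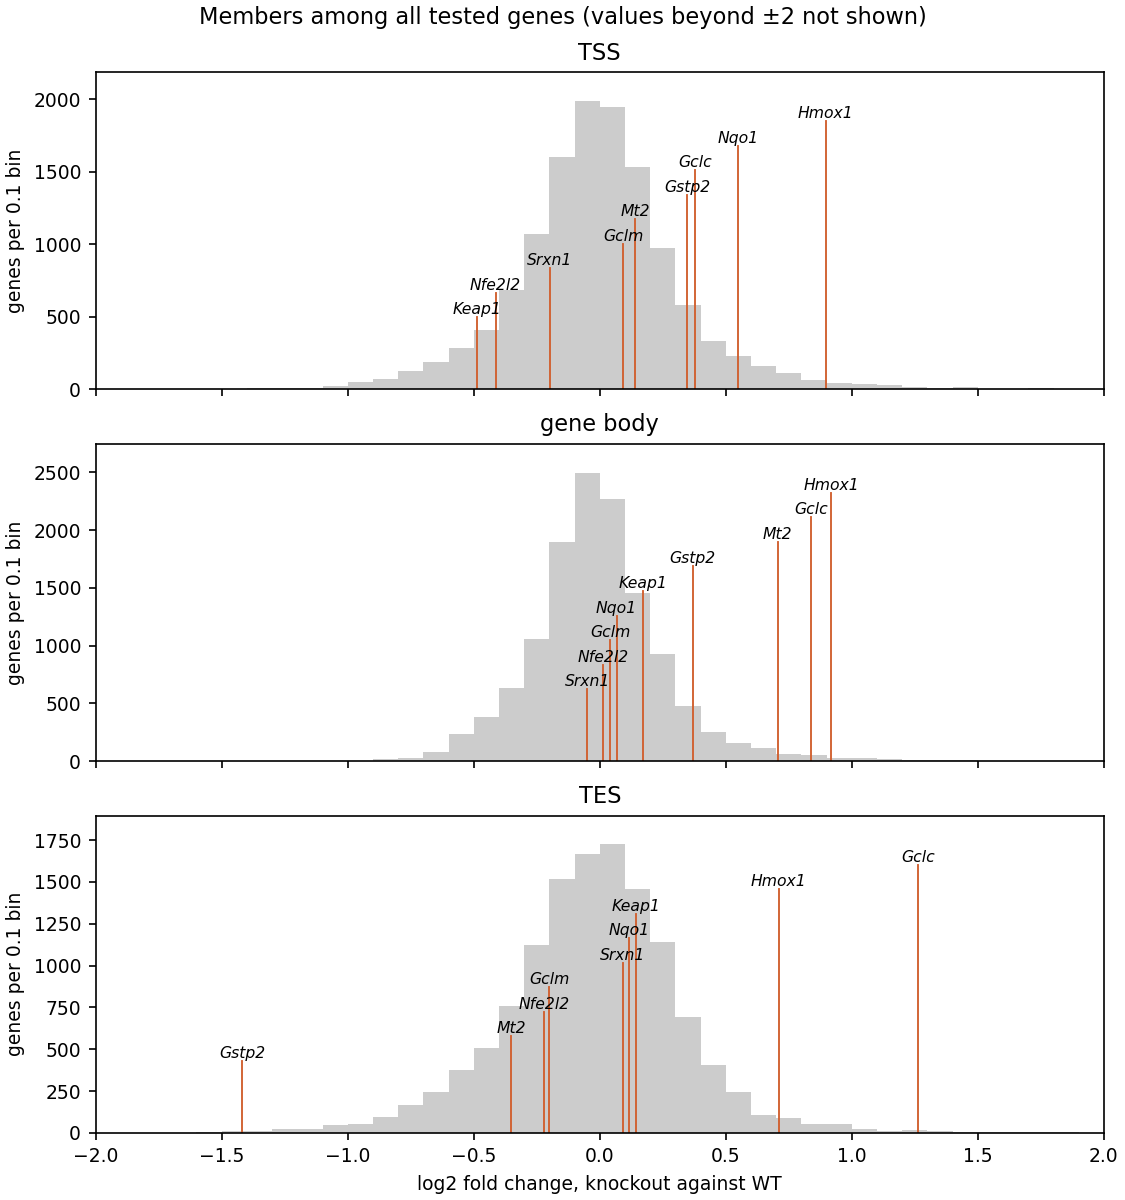
Histograms of the log2 fold changes (knockout against WT, x axis) of all genes tested in each region, in bins of 0.1 with the number of genes on the y axis and a labelled line at each of the 9 genes, whose height has no meaning. Gclc (1.26) and Gstp2 (-1.42) stand in the tails at the TES, and Hmox1 stands in the upper tail at the TSS (0.90) and over the gene body (0.92).

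As a list, the 9 genes had medians above those of all genes by region and below them by ratio, and the list was not tested as a set. Their log2 fold changes were above 0 for 6 of 9 at the TSS, 8 of 9 over the gene body and 5 of 9 at the TES. The medians were 0.14, 0.17 and 0.09, against -0.01, -0.02 and -0.02 for all genes tested. By TSS and TES to gene body ratio the medians were -0.21 and -0.23, against -0.02 and -0.01. Scaling the regions jointly moved the median of all genes to 0.24 at the TSS, -0.12 over the gene body and -0.12 at the TES, and of the 9 it turned the sign of Srxn1 at the TSS and TES and of Nfe2l2, Gclm and Nqo1 over the gene body, none of them called.

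The wider pathway was read from 9 lists with 109 genes, of which 84 had rows. At the TSS and over the gene body 0 of these were called, against 0.339% and 0.252% of all genes. At the TES 2 were higher (Gclc and Gstp1), against 0.82%, and 1 lower (Gstp2), against 0.0946%. The lists too were chosen with earlier results of these data known, so these shares are a description. Log2 fold changes were above 0 for 37 of 83 at the TSS, 58 of 84 over the gene body and 44 of 84 at the TES, with medians of -0.04, 0.09 and 0.03. DESeq2 called 3 at the TSS and 6 over the gene body, and 95 and 179 of all genes. Of the 17 glutathione S-transferases with rows, 1 rose and 1 fell at the TES, and the list's median was -0.12. Of the 14 genes of glutathione synthesis and use, Gclc was the 1 that rose at the TES, and all knockout libraries stood above all WT libraries for 5 of 14 over the gene body, against 6.51% of all genes. It was 2 of 14 at the TSS and 3 of 14 at the TES, against 6.46% and 6.7%. All knockout libraries stood below for 2, 0 and 1 of 14 at the TSS, over the gene body and at the TES. Chac1, which degrades glutathione, had the highest log2 fold changes of all these lists at the TSS (1.08 ± 0.24) and over the gene body (1.09 ± 0.20), and neither passed (adjusted p = 0.14 and 0.0988).

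No gene was called in the other 7 lists. The 11 genes of the thioredoxin and peroxiredoxin system had a gene body median of 0.19, with all knockout libraries above WT for 4 of 11, against 6.51% of all genes. Their medians were -0.04 at the TSS and 0.08 at the TES, with all knockout libraries above WT for 0 and 2 of 11. By TSS to gene body ratio their median was -0.29, against -0.02 for all genes. The 12 NRF2 regulators had medians of 0.04, 0.08 and -0.08 at the TSS, over the gene body and at the TES. For the 9 genes of quinone and xenobiotic metabolism the gene body median was -0.14, for the 6 of haem and iron 0.22, for the 6 that supply NADPH 0.097, for the 5 of metallothioneins and metal response 0.18 and for the 4 of superoxide and catalase 0.12. At the TSS the medians of these lists were, in the same order, -0.06, -0.13, 0.12, -0.09 and 0.03. At the TES they were -0.16, 0.06, 0.03, -0.15 and 0.10. In these 5 lists all knockout libraries were above WT over the gene body for 0, 2, 2, 1 and 1 genes. It was 0 of the 12 regulators, 1 of the 17 glutathione S-transferases and 16 of the 84 genes of all lists. All knockout libraries were below WT over the gene body for 1 of 84, against 3.87% of all genes. At the TSS they were above for 6 and below for 4 of 83, against 6.46% and 4.94%. At the TES they were above for 11 and below for 2 of 84, against 6.7% and 4.83%.

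**Figure D5:**
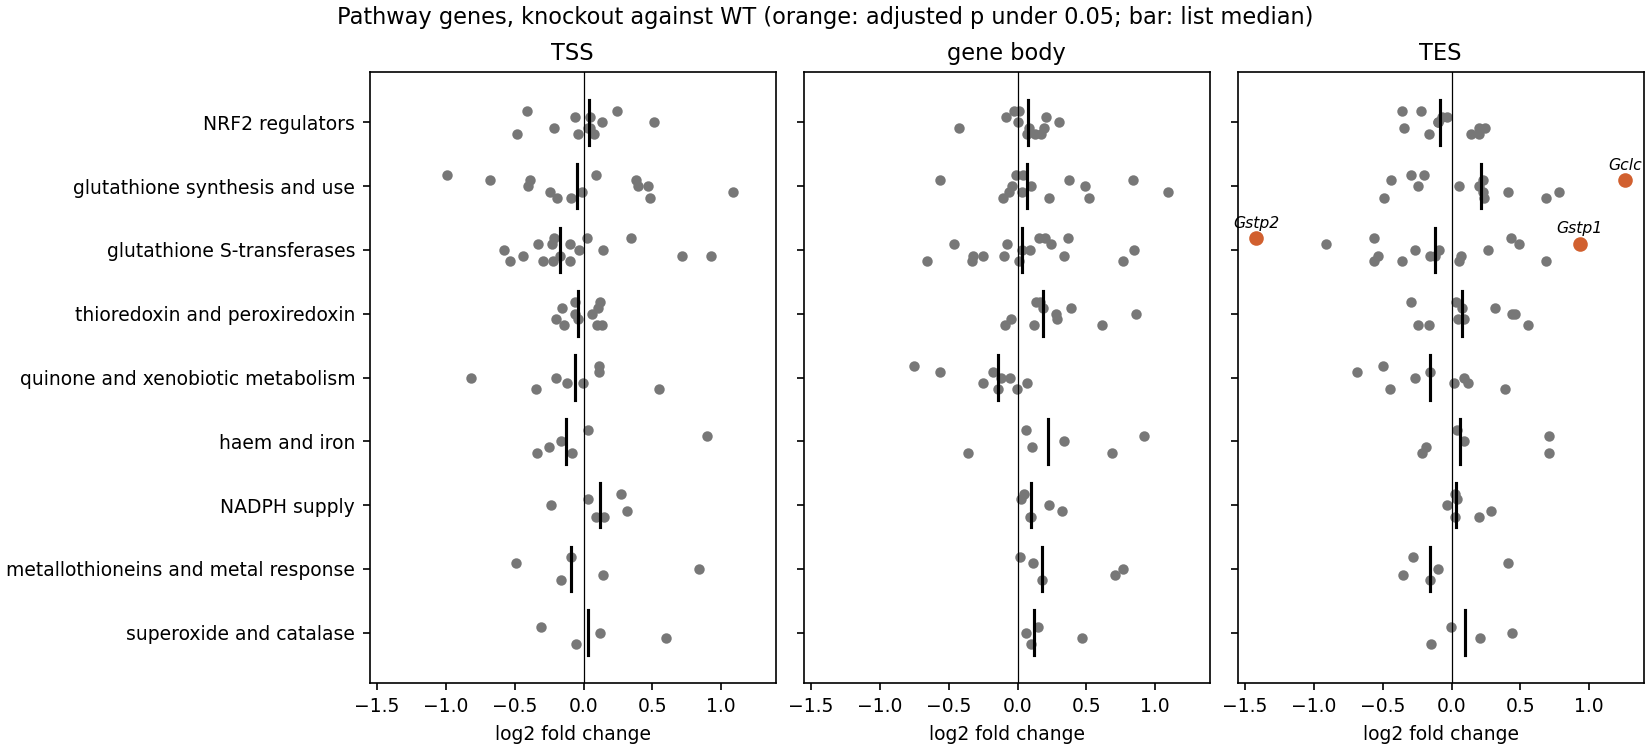
Log2 fold change of each gene of the 9 pathway lists by region, with a bar at each list's median and called genes marked. Gclc and Gstp1 (higher) and Gstp2 (lower) at the TES are the called genes.

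The pattern most like that of Gstp2 over 18 values (6 libraries in 3 regions, log2 CPM centred per region) was that of Drg1, with a root mean square difference of 0.44, then Il6ra (0.51) and Cped1 (0.52), against a median of 0.77 over 6339 candidate genes. For Mt2 the nearest were Higd2a (0.31), Ift20 (0.32) and Cyb561 (0.32), against a median of 0.56. These 18 values share 6 libraries and their depth.

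The libraries held from 14511177 to 28190157 counts in all, from 1133364 to 3406223 at the TSS, from 12419812 to 22523647 over the gene body and from 958001 to 2294430 at the TES. WT replicates 1 and 2 and knockout replicate 1 were the shallowest, and the first principal component set them apart from the other 3 in each region (46.1% to 60.9% of the variance). Each depth class held 1 library of one genotype, so no test was made within it. Gclc at the TES was higher in the knockout in both classes, at 76.6 against 47.9 and 34.3 CPM in the shallower and at 119 and 92.0 against 37.6 CPM in the deeper libraries. Gstp2 at the TES was at 54.4 against 52.6 and 118 CPM in the shallower and at 11.9 and 21.6 against 58.2 CPM in the deeper libraries, so only the deeper class separated the genotypes. Of the tissue markers, 10 of 10 adrenal cortex genes had rows and none was called. Chromaffin markers (7 of 8) were not called either, with a summed TES level of 567 to 1627 CPM in WT and 939 to 2598 CPM in the knockout. Their median log2 fold changes were 0.22 at the TSS, 0.80 over the gene body and 0.62 at the TES. At the TSS their summed level was 170 to 177 CPM in WT and 183 to 351 CPM in the knockout, without overlap. Of the 4 of 8 capsule and fibroblast markers with rows, 3 were called lower at the TES, against 0.0946% of all genes. None was called at the TSS or over the gene body. Their median log2 fold changes were -1.08 at the TSS, -1.18 over the gene body and -1.46 at the TES. Their summed TES level was 140 to 382 CPM in WT and 85.6 to 120 CPM in the knockout. The part of chromaffin, capsule or fibroblast cells in the changes of Gclc and Gstp2 was not tested. Endothelial (5 of 7), macrophage (3 of 7) and adipocyte (1 of 5) markers were not called, and no lymphocyte, kidney tubule or liver marker had a row.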

How the data were processed

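The authors deposited whole-number read counts per gene and library for the TSS, gene body and TES, and a joint table that stacks the 3. Per the submitters' processing notes the builds were GRCm38 and mm10 and the tools included limma, edgeR, HOMER, MACS2, Picard, BWA, Trimmomatic and bcl2fastq 2.20. The counting tool, window widths, read filters and any input library were not given in the sources used here. Each table was fitted whole with edgeR 4.0.16 in R 4.3.3 (TMM scaling, filterByExpr defaults of 10 counts and 15 in total, quasi-likelihood F test of the knockout, no covariate). P-values were adjusted over all tested genes by the Benjamini-Hochberg method, and called under 0.05. SE is the size of the log2 fold change over the square root of F. Ratios were tested as the interaction of region and genotype, blocked by library. Scripts were tested on simulated data.

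Groups and replicate numbers came from the sample titles. All 9 members are given with their values by library in the 3 regions. Other genes were named by a rule: paralogs, regulators, called genes of the lists, neighbours within 5 kb and the 3 genes most like Gstp2 or Mt2 among those with a mean TES CPM at or above the median. Chac1, a list's extreme, was picked after seeing its values. The members and lists were chosen with earlier results of these data known. Alternatives were RLE scaling, table totals, joint scaling, no filter, 20 counts in 3 libraries, DESeq2 1.42.0, limma 3.58.1 (voom, or the log2 ratio), a replicate block, covariates for mouse number form and depth class, and each library left out. Symbols were matched to RefSeq GRCm38.p6 (12384 of 12718).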

Additional observations from a re-analysis of the deposited data

How the results depend on the processing

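Of 720 values (45 results of the 9 genes under 16 alternatives), 656 kept their direction and side of the threshold, 13 newly passed, 3 no longer passed and 48 changed sign, none of these called. The cause was not tested in any case. The count of members called went from 0 to 1 at the TSS with DESeq2, the replicate block and depth class (0 to 1 over libraries left out), from 0 to 2 over the gene body with DESeq2 and depth class, from 2 at the TES to 1 with DESeq2 and 3 with depth class (1 to 2), and from 0 to 1 by TES ratio with depth class (0 to 2). Wider pathway genes called went from 0 at the TSS to 1 with table totals, 1 with joint scaling, 3 with DESeq2, 2 with the replicate block and 3 with depth class (0 to 1), from 0 over the gene body to 6 with DESeq2 and 2 with depth class, and from 3 at the TES to 5 with the replicate block, 5 with depth class, 2 with joint scaling and 2 with DESeq2 (2 to 4).

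The Gstp2 TES to gene body ratio was -1.73 with depth class and -2.40 to -1.66 over libraries left out, and that of Mt2 -1.27 to -0.95. Same-numbered libraries did not pair in every case: the correlations at the TSS, gene body and TES were 0.44, 0.080 and 0.030 for replicate 1, -0.21, -0.58 and -0.31 for replicate 2 and 0.36, 0.27 and 0.21 for replicate 3. With the replicate block the Gstp2 and Mt2 ratios were -1.93 and -1.13, Hmox1 passed at the TSS (adjusted p = 0.00718), and genes called among all were 100 at the TSS, 0 over the gene body and 194 at the TES, against 43, 32 and 116. Over all alternatives these counts of all genes ranged from 5 to 158, 0 to 179 and 61 to 194.

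Signs that turned were all of log2 values that did not pass. With joint scaling they were Srxn1 at the TSS (0.080) and TES (-0.019), Mt1 at the TSS (0.10), and Nfe2l2 (-0.081), Gclm (-0.057) and Nqo1 (-0.054) over the gene body. With depth class they were Mt1 at the TSS (0.0054) and over the gene body (-0.069), Nfe2l2 (-0.030) and Keap1 (-0.0056) over the gene body and Srxn1 at the TES (-0.014). By TSS ratio they were Hmox1 (0.0064 with RLE scaling, 0.068 with table totals, 0.37 with joint scaling, 0.018 with limma, 0.00019 with the replicate block), Srxn1 (0.15 with joint scaling, 0.20 with depth class), Gstp2 (0.24 with joint scaling) and Mt1 (0.083 with depth class). By TES ratio they were Keap1 (0.0023 with voom, 0.10 with depth class) and Nqo1 (-0.043 with table totals), and at the TES Mt1 (0.013 with voom).

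Over libraries left out, signs turned at the TSS for Srxn1 (-0.40 to 0.036) and Mt1 (-0.39 to 0.040). Over the gene body they turned for Nfe2l2 (-0.21 to 0.21), Gclm (-0.035 to 0.10), Nqo1 (-0.11 to 0.40), Srxn1 (-0.33 to 0.23) and Mt1 (-0.15 to 0.88). At the TES they turned for Nfe2l2 (-0.39 to 0.053), Keap1 (-0.0052 to 0.22), Nqo1 (-0.23 to 0.35), Srxn1 (-0.20 to 0.26), Mt2 (-0.67 to 0.23) and Mt1 (-0.50 to 0.31). By TSS ratio they turned for Gclm (-0.014 to 0.18), Hmox1 (-0.23 to 0.41), Srxn1 (-0.68 to 0.19) and Gstp2 (-0.41 to 0.12), and by TES ratio for Keap1 (-0.21 to 0.20) and Nqo1 (-0.19 to 0.33). Gstp2 had 12 to 62 reads per library at the TSS, which limits its precision.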
